A study of Mus musculus with 22 samples.

Results

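The replication-dependent histone genes were described in RNA-seq libraries of Prdm16 mutant and control mouse forebrain. Every gene in the count table whose symbol starts with Hist1h, Hist2h, Hist3h or Hist4h was taken, which gave 68 of 24421 genes. By type they were 6 H1, 18 H2A, 19 H2B, 12 H3 and 13 H4 genes. The rule used the symbols alone and no measured value. Forebrains were taken at E13.5 (embryonic day) from 3 Prdm16 KO embryos and 3 control littermates. The KO embryos were homozygous for a gene-trap allele that is null in all tissues, so no cell type or time restricts the loss. The labels call the controls heterozygous or wild type and do not say which embryo was which, while the methods call them wild type. The labels name the forebrain as the tissue and the methods name dissected cortices. Libraries are called here by genotype and by the animal number in the column names: KO F727, KO F728 and KO F731, and control F722, control F724 and control F725.

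Histone proteins package DNA. H2A, H2B, H3 and H4 form the core of the nucleosome, and H1 binds the linker DNA between nucleosomes. The replication-dependent genes are copied many times over in clusters, and their messages are made in S phase, when new chromatin is assembled behind the replication fork. Most lack introns, and their messages end after a conserved stem-loop in place of a poly(A) tail. SLBP binds this stem-loop and the U7 particle directs the cut behind it. Some of these genes can also give polyadenylated messages, above all in cells that have left the cell cycle. Replication-independent variants such as H2afz (H2A.Z) and H3f3a and H3f3b (both H3.3) have introns and ordinary poly(A) tails. In the embryonic forebrain the dividing cells are mainly radial glia and intermediate progenitors, beside neurons that no longer divide. The labels give the RNA as poly(A) RNA and the methods name a total RNA kit. Whether messages without a poly(A) tail were selected against in these libraries is therefore not settled by the sources, and this touches every level given here.

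All 68 symbols were matched to RefSeq on GRCm38 (mm10). The Hist1 cluster on chromosome 13 holds 54 of them, the Hist2 cluster on chromosome 3 holds 10, the Hist3 cluster on chromosome 11 holds 3, and Hist4h4 lies alone on chromosome 6. One, Hist3h2bb-ps, is annotated as a pseudogene. A stem-loop was found downstream of the stop codon in 65 of the 68 genes. It was not found in Hist1h2an or in Hist2h2be. Hist3h2bb-ps has no annotated stop codon from which the search could start, so it was not searched. The search took GG, any 4 bases, T, any base, T, any 5 bases and CC on the sense strand, with at least 5 of 6 stem pairs, from the stop codon to 100 bases past the annotated end. The stem-loop began 21 to 58 bases after the stop codon, with a median of 30 bases. It closed the annotated message in 59 genes, which end at most 10 bases behind it. In 6 genes the RefSeq message continued past it, namely Hist1h2bc, Hist1h2be, Hist1h2bp, Hist1h2bq, Hist1h2br and Hist1h3e. No such element was found in H2afz, H3f3a or H3f3b.

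The stem-loop is the sequence that sets these messages apart, so it is shown for 6 members of the 5 types with high fold changes and for the 2 most abundant members, Hist3h2ba and Hist3h2a. Capitals mark the 16 bases of the stem-loop, read 5′ to 3′ on the strand of the gene and given as DNA with 5 flanking bases on each side. All coordinates are on mm10.
Hist1h1b (chr13:21779832-21779857, minus strand): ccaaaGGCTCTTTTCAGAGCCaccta
Hist1h1d (chr13:23555782-23555807, plus strand): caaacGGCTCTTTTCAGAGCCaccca
Hist1h2ak (chr13:21753377-21753402, minus strand): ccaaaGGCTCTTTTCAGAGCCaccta
Hist2h2bb (chr3:96270166-96270191, plus strand): caaaaGGCTCTTTTCAGAGCCacttt
Hist1h3e (chr13:23561898-23561923, minus strand): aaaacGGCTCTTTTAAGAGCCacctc
Hist1h4d (chr13:23581945-23581970, plus strand): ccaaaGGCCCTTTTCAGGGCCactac
Hist3h2a (chr11:58955167-58955192, plus strand): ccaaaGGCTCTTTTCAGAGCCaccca
Hist3h2ba (chr11:58949344-58949369, plus strand): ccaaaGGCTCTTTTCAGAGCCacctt
The members used 8 different stem-loops. The form of Hist1h1b was shared by 41 genes of the types H1, H2A, H2B and H3, and it included both Hist3h2a and Hist3h2ba. The form of Hist1h3e was found in 9 genes. The form of Hist1h4d was found in 8 genes, all of the H4 type.

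Prdm16, the targeted gene, was measured at 9.6, 6.58 and 6.82 CPM in KO F727, F728 and F731 and at 58.2, 45.0 and 37.8 CPM in control F722, F724 and F725. CPM, or counts-per-million, are the deposited counts scaled by library size and a TMM factor. Its log2 fold change was -2.61 ± 0.22 (SE, adjusted P = 0.0536 by edgeR and 7.08e-24 by DESeq2). The libraries held 16.6 M to 43.1 M counts, the fewest in KO F731. This library stood apart from the others. It had counts for 22991 genes, against 17795 to 18320 in the others, and for 952 of 1125 olfactory receptor genes, against 28 to 60. The transcript from which ribosomal RNA is cut, Rn45s, made up 2.43%, 0.522% and 7.39% of the counts of KO F727, F728 and F731 and 0.615%, 0.231% and 0.224% of those of control F722, F724 and F725. Its groups overlapped, with a log2 fold change of 3.45 ± 0.95 (adjusted P = 0.863 by edgeR), or 2.07 without KO F731. Red blood cell markers were also highest in KO F731: all 6 listed genes were detected in every library, and they summed to 5160 CPM there, 1436 and 1710 CPM in the other KO libraries and 1717 to 1803 CPM in the controls. The 3 choroid plexus markers summed to 4.4, 8.0 and 16.9 CPM in KO F727, F728 and F731 and to 1.6 to 6.2 CPM in the controls. All listed radial glia, intermediate progenitor, neuron and forebrain markers were detected in every library. The 7 radial glia markers summed to 3159 to 3449 CPM in KO and 2878 to 3018 CPM in the controls, and the 6 neuron markers to 4207 to 4592 CPM in KO and 4717 to 5215 CPM in the controls, without overlap in either. In KO F731 the 3 intermediate progenitor markers were lowest, at 384 CPM against 529 to 685 CPM in the other libraries. The 4 microglia markers (41.9 against 20.4 to 23.7 CPM) and the 4 endothelial markers (114 against 60.5 to 80.8 CPM) were highest there. The part of these features in the values below was not tested. The type sums and the log2 fold changes of single members are also given without KO F731. All values are from whole tissue, where fewer cells of a type and less RNA per cell cannot be told apart.

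The summed level of the 68 genes was 251, 215 and 465 CPM in KO F727, F728 and F731, against 230, 207 and 193 CPM in control F722, F724 and F725. KO F728 lay within the controls, and the other KO libraries lay above them. The ratio of the group means was 1.48, or 1.11 without KO F731. The sum was dominated by the genes on chromosome 11. Hist3h2ba, an H2B gene, had 89.1, 88.8 and 164 CPM in the KO libraries and 98.6, 92.6 and 86.3 CPM in the controls. Hist3h2a, an H2A gene, had 53.2, 50.8 and 55.1 CPM in the KO libraries and 59.6, 57.0 and 50.04 CPM in the controls. Per kilobase of annotated exon, the mean level over the 6 libraries was 223 CPM for Hist3h2ba and 107 CPM for Hist3h2a, while the next gene, Hist1h2bc, had 8.72 CPM. The chromosome 11 genes and Hist2h2be together had 162, 159 and 232 CPM in KO F727, F728 and F731 and 153 to 177 CPM in the controls. KO F727 and F728 lay within the controls. KO F731 lay above them, and Hist3h2ba was also highest there. The other 64 genes summed to 89.8, 55.6 and 233 CPM in KO F727, F728 and F731 and to 52.7, 39.7 and 40.3 CPM in control F722, F724 and F725. For these 64 genes every KO library lay above every control. The ratio of the group means was 2.86, it was 1.64 without KO F731, and KO F728 alone stood at 1.26 times the control mean. This split of 4 and 64 genes was made after the values were seen.

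**Figure D1:**
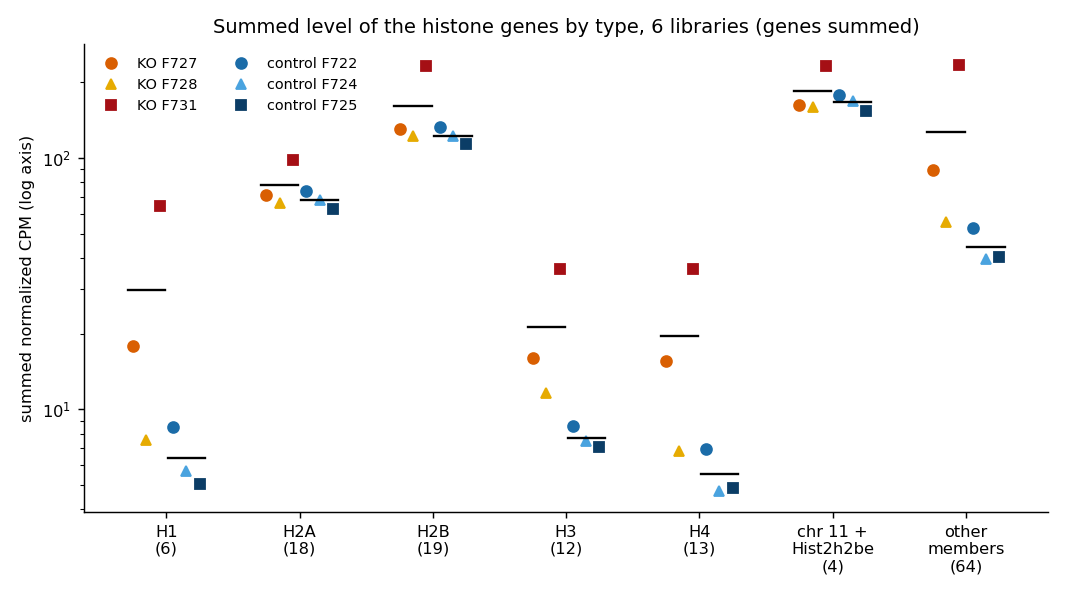
Summed normalized CPM (log axis) of the histone genes in each of the 6 libraries, by type and for the split into the chromosome 11 genes with Hist2h2be and the other 64 genes; black bars are group means and the number of genes summed is in parentheses. KO F731 is the highest library in every column. The KO libraries lie wholly above the controls for H3 (11.6 to 36.2 against 7.07 to 8.57 CPM) and for the 64 other genes. They overlap the controls for H1, H2A, H2B and H4. The split that gives the 64 genes was made after the values were seen.

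By type, the H1 genes summed to 17.9, 7.57 and 64.3 CPM in KO F727, F728 and F731 and to 8.48, 5.69 and 5.06 CPM in control F722, F724 and F725. KO F728 lay inside the control range, and the ratio of means was 4.67, or 1.98 without KO F731. The H3 genes summed to 16.01, 11.6 and 36.2 CPM in KO and to 8.57, 7.48 and 7.07 CPM in the controls. All 3 KO libraries exceeded all 3 controls, with a ratio of 2.76, or 1.79 without KO F731. The H4 genes summed to 15.6, 6.81 and 36.2 CPM in KO and to 6.94, 4.75 and 4.86 CPM in the controls, a ratio of 3.54, or 2.03 without KO F731. KO F728 was just under the highest control. The H2A sum (71.1, 66.2 and 97.7 against 73.6, 67.8 and 62.4 CPM) and the H2B sum (131, 123 and 231 against 132, 122 and 114 CPM) overlapped between the groups. Their ratios were 1.15 and 1.32, or 1.01 and 1.03 without KO F731. Without the chromosome 11 genes and Hist2h2be, the H2A sum was 17.9, 15.3 and 42.6 CPM in KO and 14.0, 10.8 and 12.4 CPM in the controls. The H2B sum was then 22.4, 14.3 and 54.1 CPM in KO and 14.7, 11.0 and 10.9 CPM in the controls.

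The expression of 54 members was high enough for the test, and 14 were not tested. Some members passed the filter through the KO libraries alone. In control F722, F724 and F725, Hist1h3f had 6, 9 and 5 counts, Hist1h2bn 3, 7 and 5, and Hist4h4 7, 2 and 2. Such members could hardly come out lower in KO, so the counts below lean towards higher. The size of this was not tested. By edgeR with Benjamini-Hochberg adjustment over 15027 genes, 0 members passed an adjusted P of 0.05, as did 0 genes in all (0% of the genes tested). At an unadjusted P under 0.05, 32 members were higher in KO and 0 were lower, where 1.26% of all genes tested were higher and 0.665% lower. The log2 fold change was above 0 in 51 of the 54 members, against 49.2% of all genes tested. Its median was 1.64 over the members, against -0.00 over all genes. Without KO F731, 25 members were higher at the unadjusted threshold (1.44% of all genes) and the median was 0.81. The count of 32 of 54 was 43 of 62 without KO F728 (2.74% of all genes) and 14 of 54 with limma-voom (1.01%). It was 17 of 62 without control F724 (0.59%) and 19 of 62 without control F725 (0.776%). The fits over 62 members include members that the main fit did not test. A filter at 1 CPM in 3 libraries left 23 members, of which 9 were higher (1.05%). With KO F728 as the only KO library it was 4 (0.961%), in a fit whose spread comes from the controls alone and which assumes that KO varies alike. On simulated counts a larger share of the calls was false for DESeq2 than for edgeR, a reason for care with the DESeq2 values given here. Those counts held no library that stands apart over many genes as KO F731 does. How far the result carries over to these libraries was not tested. DESeq2 called 3 members at an adjusted P under 0.05, all higher in KO: Hist1h1b, Hist1h1d and Hist2h2bb (0.102% of all genes were called higher). On the genes that edgeR tested, DESeq2 called 4, Hist1h1a, Hist1h1b, Hist1h2ak and Hist2h2bb (0.126% of all genes). When a library was left out, DESeq2 called 7 members higher without KO F728 (0.132% of all genes) and 3 without control F722 (0.053%). It called 0 without KO F727 (0.0129%), KO F731 (0.144%), control F724 (0.0215%) or control F725 (0.0257%).

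In 29 of the 68 members every KO library lay above every control, and in 0 every KO library lay below, where 3.86% of all genes were above, with any count or among those tested, and 3.55% of those tested were below. Of these 29, 2 were H1, 4 H2A, 10 H2B, 9 H3 and 4 H4 genes. Fewer libraries overlap less often by number alone, and the count was 30 without KO F731 (6.21% of all genes with any count), 49 without KO F728 (9.46%) and 45 without control F722 (11.8%). Of the 23 members that passed 1 CPM in 3 libraries, 9 had no overlap (3.25% of all genes that passed). With KO F728 as the only KO library, 3 members lay below every control (17%). KO F731 was the highest library in 58 of 68 members, but it was also the highest in 58.1% of all genes with any count and in 38.4% of those tested. KO F727 exceeded every control in 52 of 68 members, against 17.3% of all genes with any count and 20.2% of those tested. KO F728 did so in 33 of 68, against 19.1% and 22%. The order KO F731 over KO F727 over KO F728 was met in 49 of 68 members, against 19.2% of all genes with any count and 18.3% of those tested.

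**Figure D2:**
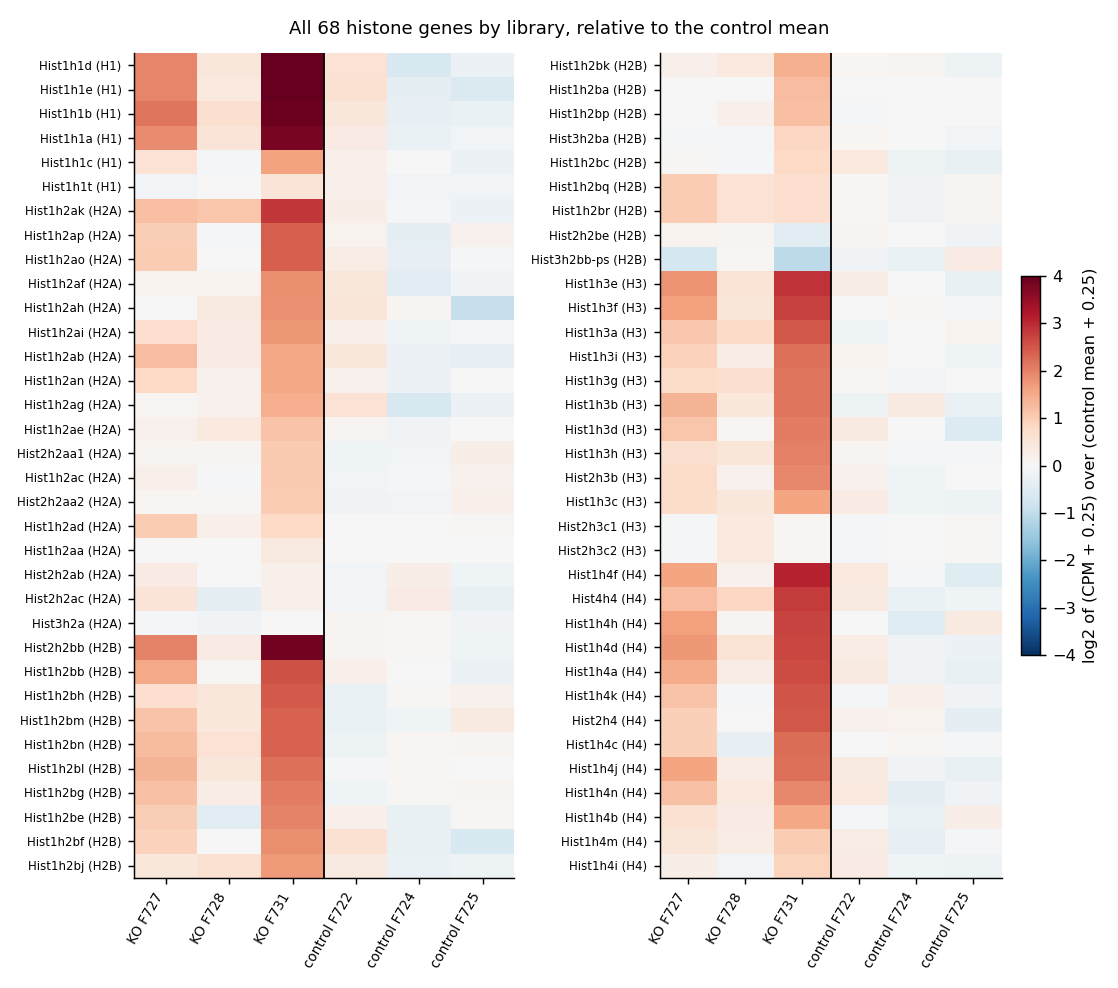
Each of the 68 members (rows, with type in parentheses) in each library (columns), as log2 of CPM plus 0.25 over the control mean plus 0.25; red is above and blue below the control mean, and the black line divides KO from control. The KO F731 column is red in most rows and the KO F727 column is a paler red in most of these rows, while KO F728 is close to the controls; Hist3h2a, Hist2h2be, Hist2h3c1 and Hist2h3c2 are pale in all columns.

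Among the H1 genes, Hist1h1b (RefSeq H1f5, a linker histone) was measured at 2.86, 0.849 and 10.5 CPM in KO F727, F728 and F731 and at 0.726, 0.312 and 0.340 CPM in control F722, F724 and F725. Every KO library exceeded every control. The log2 fold change was 3.31 ± 0.91 (SE, n = 3 and 3; adjusted P = 0.863 by edgeR and 0.0272 by DESeq2), and it was 2.004 without KO F731. Hist1h1d (H1f3) had 3.05, 0.919 and 16.1 CPM in KO and 1.05, 0.312 and 0.476 CPM in the controls. Here KO F728 lay within the controls, and the log2 fold change was 3.40 ± 1.04 (adjusted P = 0.863 by edgeR and 0.0435 by DESeq2), or 1.70 without KO F731. DESeq2 on the genes that edgeR tested gave Hist1h1d an adjusted P of 0.613. Hist1h1a (H1f1) had 1.98, 0.613 and 7.99 CPM in KO and 0.494, 0.245 and 0.306 CPM in the controls, with no overlap. Hist1h1e (H1f4) had 3.49, 1.04 and 16.1 CPM in KO and 1.25, 0.513 and 0.408 CPM in the controls, so that KO F728 lay below the highest control. Their log2 fold changes were 3.27 and 3.18, or 1.89 and 1.63 without KO F731, and DESeq2 gave both an adjusted P of 0.0523. Hist1h1c (H1f2), the most abundant H1 message per kilobase, had 6.46, 4.12 and 13.4 CPM in KO and 4.91, 4.31 and 3.53 CPM in the controls. The groups overlapped, with a log2 fold change of 0.88 ± 0.40 (unadjusted P = 0.0635 by edgeR), or 0.31 without KO F731. The testis H1 gene Hist1h1t had 0 to 2 counts in every library and was not tested.

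**Figure D3:**
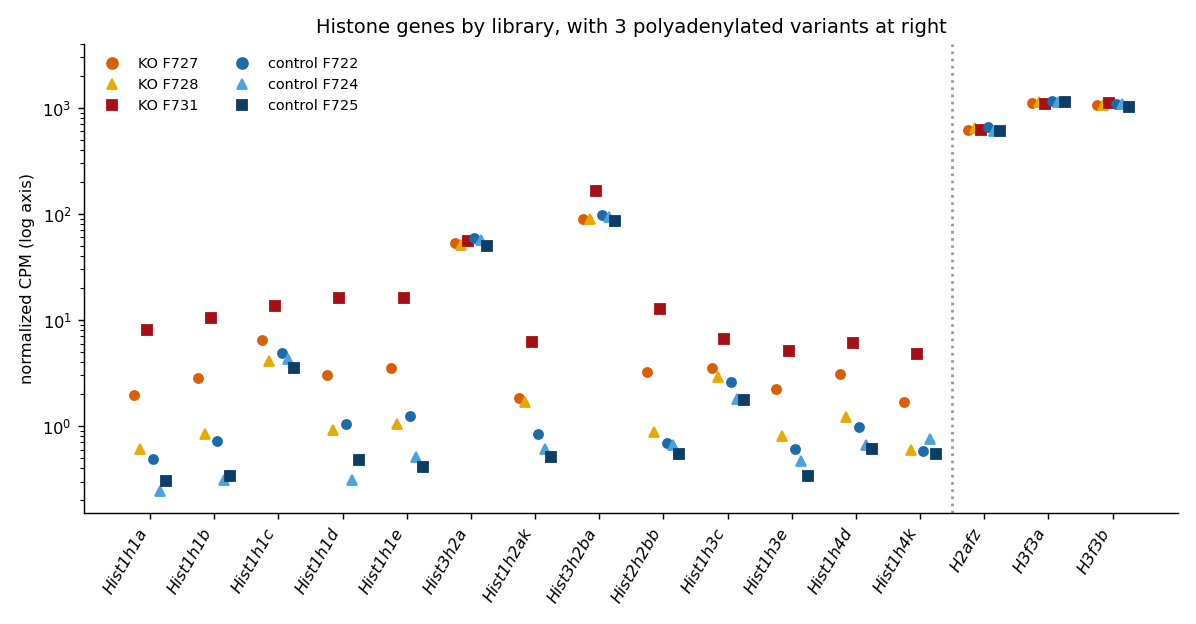
Normalized CPM (log axis) of 13 members and of the polyadenylated variants H2afz, H3f3a and H3f3b in each of the 6 libraries. For Hist1h1a and Hist1h1b the 3 KO libraries spread from 0.613 to 7.99 and from 0.849 to 10.5 CPM and lie above the controls, while the 6 points of Hist3h2a (50.04 to 59.6 CPM) and of each variant lie close together.

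Of the 18 H2A genes, 13 were tested. By edgeR 4 were higher in KO at an unadjusted P under 0.05 and 0 lower, against 1.26% and 0.665% of all genes tested. The median log2 fold change was 0.77, or 0.25 without KO F731. Hist3h2a had a log2 fold change of -0.07 ± 0.11 over the values given above, or -0.10 without KO F731. Hist1h2ak (RefSeq H2ac15) was measured at 1.84, 1.70 and 6.20 CPM in KO F727, F728 and F731 and at 0.842, 0.603 and 0.510 CPM in the controls. All 3 KO libraries lay above every control. Its log2 fold change was 2.25 ± 0.57 (adjusted P = 0.863 by edgeR and 0.131 by DESeq2), or 1.43 without KO F731. On the genes that edgeR tested, DESeq2 gave it an adjusted P of 0.0334. Hist2h2aa1 and Hist2h2aa2, on opposite strands of chromosome 3, had 2.53, 2.498 and 5.03 CPM and 2.61, 2.59 and 5.23 CPM in KO. Their controls had 2.03 to 2.75 CPM and 2.24 to 2.92 CPM, so the groups overlapped. In GENCODE, neither gene has any 50-base stretch of its own. RefSeq reaches further for Hist2h2aa2 (to base 96240374, against 96240276), and this part was not checked. Hist2h2aa2 had a slightly higher count than Hist2h2aa1 in every library. How far reads can be assigned to one of the pair was not tested.

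Of the 19 H2B genes, 16 were tested. By edgeR 8 were higher in KO at an unadjusted P under 0.05 and 0 lower, against 1.26% and 0.665% of all genes tested. The median log2 fold change was 1.39, or 0.74 without KO F731. Hist3h2ba had a log2 fold change of 0.30 ± 0.24 over 6 libraries and of -0.06 without KO F731. Hist2h2be, whose annotated message holds a long 3′ UTR and in which no stem-loop was found, had 18.9, 18.6 and 12.53 CPM in KO F727, F728 and F731, against 18.6, 17.5 and 15.6 CPM in the controls. KO F731 was its lowest library. Its log2 fold change was -0.04 ± 0.18, and 0.12 without KO F731. Hist1h2bc, whose annotated message has a second exon beyond the stem-loop, had 6.19, 5.77 and 10.6 CPM in KO and 7.87, 5.22 and 4.86 CPM in the controls. Its groups overlapped, with a log2 fold change of 0.31 ± 0.29, or -0.00 without KO F731. Hist2h2bb (RefSeq H2bc18), next to Hist2h3b on chromosome 3, had 3.25, 0.872 and 12.7 CPM in KO and 0.697, 0.669 and 0.544 CPM in the controls. There was no overlap, and the log2 fold change was 3.07 ± 0.89 (adjusted P = 0.863 by edgeR and 0.0435 by DESeq2), or 1.66 without KO F731. None of its 50-base stretches in GENCODE is unique, and 2 other annotated genes share them. RefSeq reaches further at each end (96269700 to 96270192, against 96269752 to 96270132), and these parts were not checked.

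Of the 12 H3 genes, 11 were tested. By edgeR 8 were higher in KO at an unadjusted P under 0.05 and 0 lower, against 1.26% and 0.665% of all genes tested. The median log2 fold change was 1.72, or 0.98 without KO F731. H3 was the type with the largest share of members in which the groups did not overlap, 9 of 12. Hist1h3c had 3.55, 2.92 and 6.68 CPM in KO F727, F728 and F731, against 2.61, 1.79 and 1.77 CPM in the controls, a log2 fold change of 1.06 ± 0.35, or 0.65 without KO F731. Hist1h3e had 2.26, 0.801 and 5.10 CPM in KO and 0.610, 0.469 and 0.340 CPM in the controls. All KO libraries were above all controls, and the log2 fold change was 2.45 ± 0.66 (adjusted P = 0.863 by edgeR and 0.222 by DESeq2), or 1.66 without KO F731. Hist1h3h had 1.40, 1.25 and 4.06 CPM in KO and 0.900, 0.781 and 0.781 CPM in the controls, a log2 fold change of 1.38 ± 0.50, or 0.69 without KO F731. Hist2h3c1 and Hist2h3c2 had the same count in each library, at 0.908, 1.34 and 1.03 CPM in KO and 0.929, 0.982 and 1.02 CPM in the controls. They overlapped between the groups, with a log2 fold change of 0.17 ± 0.31, or 0.21 without KO F731.

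Of the 13 H4 genes, 9 were tested. By edgeR 8 were higher in KO at an unadjusted P under 0.05 and 0 lower, against 1.26% and 0.665% of all genes tested. The median log2 fold change was 2.15, or 1.495 without KO F731. All 13 followed the order KO F731 over KO F727 over KO F728. Hist1h4d had 3.08, 1.23 and 6.13 CPM in KO F727, F728 and F731, against 0.987, 0.669 and 0.612 CPM in the controls. The groups did not overlap, with a log2 fold change of 2.15 ± 0.57 (adjusted P = 0.863 by edgeR and 0.222 by DESeq2), or 1.495 without KO F731. Hist1h4k had 1.68, 0.589 and 4.75 CPM in KO and 0.581, 0.759 and 0.544 CPM in the controls, so KO F728 lay among the controls. Its log2 fold change was 1.81 ± 0.70, or 0.81 without KO F731. Hist1h4i had 1.98, 1.53 and 3.31 CPM in KO and 2.12, 1.45 and 1.39 CPM in the controls, which overlapped, with a log2 fold change of 0.42 ± 0.35, or 0.08 without KO F731. Hist4h4, named here after its values were seen because it lies alone on chromosome 6, had 0.578, 0.377 and 2.20 CPM in KO. Its controls had 0.203, 0.0446 and 0.0679 CPM (7, 2 and 2 counts), below every KO library (21, 16 and 32 counts). The log2 fold change of 3.18 ± 0.90, or 2.18 without KO F731, rests on these few control counts.

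**Figure D4:**
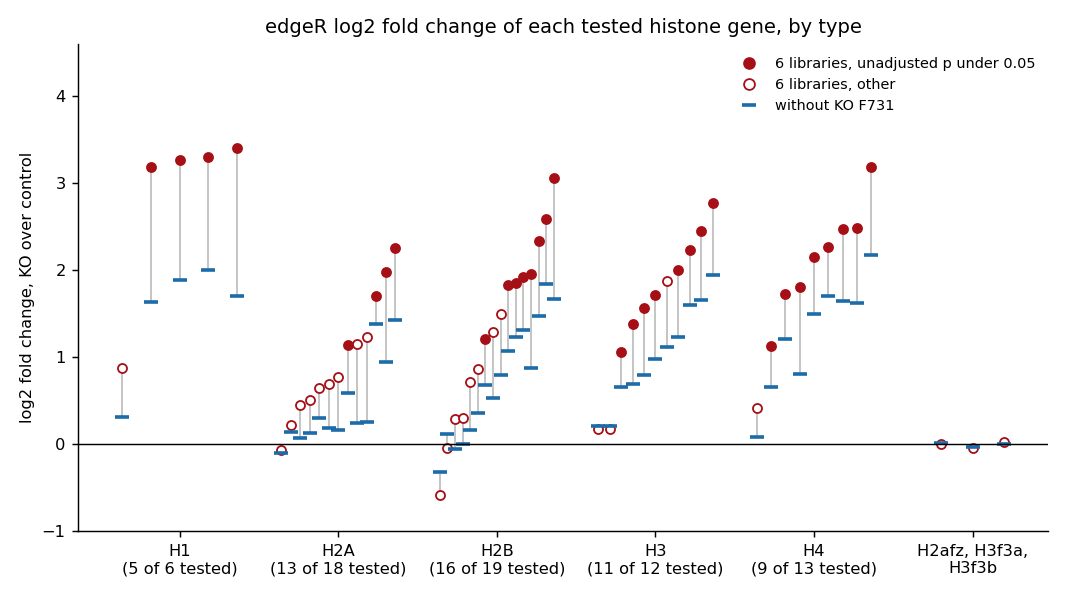
edgeR log2 fold change of KO over control for each tested member by type and for the variants H2afz, H3f3a and H3f3b, with all 6 libraries (circles, filled at an unadjusted P under 0.05) and without KO F731 (blue bars), joined by a grey line. Filled circles number 4 for H1, 4 for H2A, 8 for H2B, 8 for H3 and 8 for H4; most blue bars lie between the circle and 0, and the variants lie at 0.

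The 14 members that were not tested were Hist1h1t, 5 H2A, 3 H2B, 1 H3 and 4 H4 genes. Their counts ran from 0 to 45 in a library. The testis genes Hist1h1t, Hist1h2aa and Hist1h2ba held 5, 1 and 5 counts over all 6 libraries. Of the 14, 5 had all KO libraries above all controls in CPM, against 3.86% of all genes with any count. These were Hist1h2ad, Hist1h2bq, Hist1h2br, Hist1h4m and Hist2h3b. Hist1h2bq and Hist1h2br had the same count in each library and may not be separate measurements.

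By cluster, the 54 Hist1 genes summed to 77.2, 45.8 and 202 CPM in KO F727, F728 and F731 and to 44.8, 31.6 and 31.4 CPM in control F722, F724 and F725. The lowest KO library was just above the highest control. Some members passed the filter through the KO libraries alone, Hist1h3f and Hist1h2bn among them, so the counts of this paragraph lean towards higher. Of the 43 Hist1 members tested, all had a log2 fold change above 0, against 49.2% of all genes tested. At an unadjusted P under 0.05 by edgeR 30 were higher, against 1.26% of all genes tested. Of the 7 Hist2 members tested, 1 was, and of the 3 Hist3 members 0 were. The pseudogene Hist3h2bb-ps had 0.330, 0.754 and 0.207 CPM in KO and 0.610, 0.536 and 0.951 CPM in the controls, with overlap. By annotated 3′ end, 31 of 48 tested members that end at the stem-loop were higher at the unadjusted threshold. The count was 1 of 4 for those that continue past it in RefSeq. It was 0 of 2 for those without a stem-loop found, Hist2h2be and the unsearched Hist3h2bb-ps. The difference between these classes was not tested. The 2 most abundant members, Hist3h2ba and Hist3h2a, end at the stem-loop in RefSeq, and GENCODE extends both past it. This does not set them apart, as GENCODE does so for 47 of the 65 members with a stem-loop, Hist1h1d and Hist1h4d included. Among these 47, 40 were tested and 22 were higher at the unadjusted threshold, against 10 of 12 that GENCODE does not extend.

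Many members share sequence. In 34 of 68, under 50% of the 50-base stretches of the message annotated in GENCODE were found in no other gene, and in 5 none were. The sources used here do not say how reads with several matches were counted. Of the 34 members with at least 50% unique sequence, 28 were tested and 16 were higher in KO at an unadjusted P under 0.05 by edgeR. Of the 34 with less, 26 were tested and 16 were higher, where 1.26% of all genes tested were higher. The median log2 fold changes were 1.87 and 1.44. Among the H1 genes, Hist1h1a and Hist1h1b were unique throughout, Hist1h1d to 97.7%, Hist1h1c to 91.5% and Hist1h1e to 68%.

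The histone level of a library was then set against its share of Rn45s. As a share of all counts, in raw CPM without the TMM factor, the 68 genes took 254, 221 and 406 raw CPM in KO F727, F728 and F731, against 235, 216 and 199 raw CPM in control F722, F724 and F725. The order of the 6 libraries was the same as that of their Rn45s shares. Pearson's r was 0.99 (exact permutation P = 0.00278, two-sided, n = 6) and Spearman's rho was 1 (exact P = 0.00278, the smallest that 6 libraries allow). Adjusted over 8 relations with shares of all counts, separately for r and rho, both were 0.0111. These 8 cover all members, the 64 genes named below, each type and the variants. Relations with libraries left out or with another denominator were not adjusted. The permutations exchanged KO and control libraries, so the P-values also reflect the difference between the groups. KO F731 stands apart in both shares, so the pooled r leans on it. The members were also chosen with earlier results of these data known. The pooled r and its P-values, here and by type, are therefore descriptive only. Without KO F731 r was 0.86 (exact P = 0.0167, n = 5, the smallest that 5 libraries allow). Without KO F731 and KO F727, the libraries farthest from the median share, r was 0.87 (exact P = 0.0833, n = 4, the smallest that 4 libraries allow). Both of these libraries are KO and hold the highest shares, so genotype and Rn45s share cannot be told apart among the high values. In the overlapping range, control F722 had a slightly higher Rn45s share than KO F728 (0.615% against 0.522%) and also a higher histone share (235 against 221 raw CPM). For the 64 genes without those of chromosome 11 and Hist2h2be this was turned, at 53.9 raw CPM in control F722 and 57.3 raw CPM in KO F728.

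By type, r with the Rn45s share was 1.00 for H1, 0.99 for H3, 1.00 for H4, 0.96 for H2B and 0.88 for H2A over the 6 libraries. The exact permutation P-values adjusted over the 8 relations were 0.0111, 0.0178, 0.0148, 0.0921 and 0.0921. Spearman's rho was 1, 0.94, 0.94, 0.89 and 0.89, with adjusted exact P-values of 0.0111, 0.0333, 0.0333, 0.0381 and 0.0381. Without KO F731 alone, r was 1.00 for H1, 0.92 for H3, 1.00 for H4, 0.49 for H2B and 0.34 for H2A, so that the H2B and H2A values rest on that library. Without KO F731 and KO F727, r was 0.99 for H1, 0.65 for H3, 0.99 for H4, 0.79 for H2B and 0.66 for H2A. H1 shares were 18.0, 7.80 and 56.1 raw CPM in KO F727, F728 and F731, against 8.67, 5.92 and 5.22 raw CPM in control F722, F724 and F725. The summed share of H2afz, H3f3a and H3f3b was 2834, 2922 and 2448 raw CPM in KO and 2994, 2945 and 2828 raw CPM in the controls. Its r was -0.95 over the 6 libraries (exact permutation P = 0.122, n = 6), and Spearman's rho was -0.26. Without KO F731 r was -0.44, and without KO F731 and KO F727 it was 0.67, so the pooled value rests on KO F731. The order of the KO libraries was the same for Rmrp and Rpph1, which were picked after their values were seen. Rmrp, the RNA of the RNase MRP enzyme, had 15.05, 1.81 and 52.3 CPM in KO F727, F728 and F731, against 0.871, 0.558 and 0.238 CPM in the controls. Rpph1, the RNA of RNase P, had 7.92, 0.613 and 42.1 CPM in KO and 0.639, 0.201 and 0.102 CPM in the controls. Of 64 structural RNA genes tested, most of them snoRNA genes, 3 were higher in KO at an unadjusted P under 0.05 by edgeR. These were Rn45s, Rmrp and Rpph1, where 1.26% of all genes tested were higher. Most of the 64 did not lie higher in KO: 36 were below 0 and 28 above it on the log2 scale (median -0.05).

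**Figure D5:**
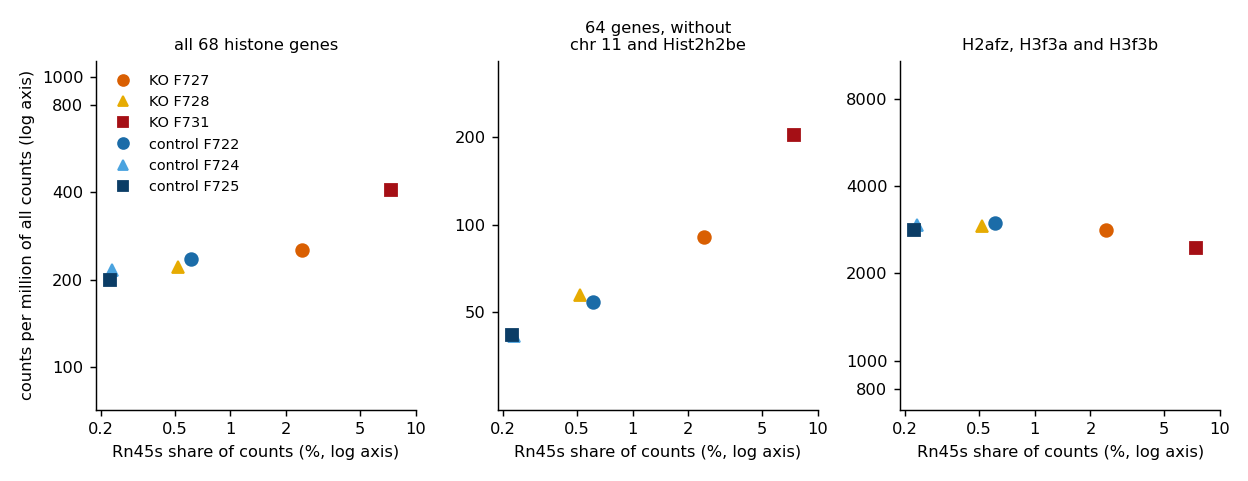
Share of all counts in raw CPM (log axis) against the Rn45s share of counts in percent (log axis) in the 6 libraries, for all 68 members, for the 64 without the chromosome 11 genes and Hist2h2be, and for H2afz, H3f3a and H3f3b summed. The histone share climbs from 199 raw CPM in control F725 to 406 in KO F731 as the Rn45s share goes from 0.224 to 7.39%, while the variants range from 2448 to 2994 raw CPM.

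The polyadenylated variants differed little between the groups. H2afz was measured at 617, 647 and 614 CPM in KO F727, F728 and F731 and at 666, 602 and 602 CPM in control F722, F724 and F725. H3f3a had 1122, 1123 and 1087 CPM in KO and 1167, 1143 and 1133 CPM in the controls. H3f3b had 1071, 1064 and 1105 CPM in KO and 1094, 1085 and 1010 CPM in the controls. The H2afz and H3f3b groups overlapped, and all 3 KO values of H3f3a were just below its controls. The log2 fold changes were 0.00 ± 0.10, -0.05 ± 0.09 and 0.02 ± 0.09, and the sign of H2afz and of H3f3b changed with scaling without histone and structural RNA genes. Of 11 variant histone genes tested, these 3 included, 0 were higher or lower at an unadjusted P under 0.05 by edgeR and 0 were called by DESeq2. H2afj, an H2A variant gene, had the smallest P of them (0.134, unadjusted, by edgeR), at 43.5, 51.2 and 130 CPM in KO and 57.3, 41.7 and 41.8 CPM in the controls, with overlap.

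The genes that make and handle histone messages were given by list. Of 15 genes for histone message processing and transcription, among them Slbp, Npat (the activator of histone transcription) and Lsm10 and Lsm11 (parts of the U7 particle), 0 differed at an unadjusted P under 0.05 by edgeR, 0 were called by DESeq2, and the median log2 fold change was -0.04. Slbp, whose protein binds the stem-loop, had 87.2, 88.5 and 66.04 CPM in KO F727, F728 and F731, against 87.9, 80.5 and 87.2 CPM in the controls. KO F731 was its lowest library and the groups overlapped. Npat had 40.9, 37.3 and 22.1 CPM in KO and 35.9, 39.1 and 37.8 CPM in the controls, and here too KO F731 was lowest. Of 11 histone chaperone genes, 0 differed by either tool, with a median log2 fold change of 0.04. Of 18 S-phase genes, 0 differed by either tool, with a median of 0.00 and 10 of 18 above 0. Their sum was 2576, 2758 and 2272 CPM in KO and 2641, 2410 and 2565 CPM in the controls. Pcna, the replication clamp, had 359, 374 and 306 CPM in KO and 374, 323 and 348 CPM in the controls, with overlap. In KO F731, the library with the highest histone sum, the S-phase sum was the lowest of the 6.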

How the data were processed

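RNA-seq was made from 3 Prdm16 KO and 3 control forebrains. The authors trimmed reads with Trimmomatic, mapped them to mm10 with HISAT2 and deposited counts per gene on the iGenomes UCSC annotation. The sources used here name no counting program, strand setting or rule for reads with several matches. The 6 forebrain columns were used, and 18 further per-sample columns were not used. P-values of edgeR, DESeq2 and limma-voom rest on the spread between these 3 embryos per genotype, with information shared over all genes. The permutation P-values rest on exchanging the 6 libraries across both genotypes.

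Genes were filtered with filterByExpr (minimum count 10), which left 15027, and fitted with edgeR 4.0.16 (robust quasi-likelihood, TMM, two-sided, Benjamini-Hochberg over all genes), after a check on simulated counts, in which a larger share of the calls was false for DESeq2 than for edgeR. The SE is the log2 fold change over the square root of F. DESeq2 1.42.0 and limma-voom 3.58.1 were alternatives, with RLE and upper-quartile scaling, scaling without histone and structural RNA genes, other filters, and libraries left out. DESeq2 on the filtered genes, DESeq2 with each library left out and the sums without chromosome 11 and Hist2h2be were added after seeing the data. Permutation tests were exact. Positions and stem-loops come from RefSeq and 50-base sharing from GENCODE vM21, both on GRCm38.

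Named genes were the 3 most abundant of each type, tested H1 genes, members called by edgeR or DESeq2 in a fit over 6 libraries or with 1 left out, the 3 variants, Prdm16 and Rn45s. Members and lists were chosen with earlier results of these data known.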

Additional observations from a re-analysis of the deposited data

How the results depend on the processing

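No paired analysis was possible because the columns carry animal numbers and not the replicate numbers of the labels. The count of members called at an adjusted P under 0.05 was 0 by edgeR, 3 by DESeq2 and 4 by DESeq2 on the genes edgeR tested, and 0 to 7 with a library left out in edgeR or DESeq2. The 32 members higher at an unadjusted P became 14 with limma-voom, 9 with a filter at 1 CPM in 3 libraries, 4 without KO F727 and KO F731, and 17 to 43 with a library left out. With a library left out, edgeR tested 54 to 62 members, against 54 in the main fit. The 29 members above all controls became 9 of the 23 that passed the 1 CPM filter (3.25% of all genes) and 30 to 49 with a library left out. The 0 below became 0 to 1 with a library left out and 3 without KO F727 and KO F731 (17% of all genes). The log2 ratio of the summed level was 0.56, it became 0.15 without KO F731 and 0.03 without KO F727 and KO F731, and it became 1.51 without chromosome 11 and Hist2h2be, where that of H2A became 1.03 and that of H2B 1.31. Without KO F727 and KO F731 the log2 ratio was 0.24 for H1, 0.59 for H3 and 0.30 for H4, it turned to -0.0388 for H2A and -0.00103 for H2B, and r with the Rn45s share was 0.87. In that setting the log2 fold change turned to -0.0489 for Hist1h1c, -0.0623 for Hist3h2ba, 0.109 for Hist2h2be, -0.0551 for Hist1h2bc, -0.114 for Hist1h4i, -0.112 for Hist1h4k and -0.00268 for H3f3b. With a library left out it ran from -0.0593 to 0.44 for Hist3h2ba, -0.16 to 0.12 for Hist2h2be, -0.00386 to 0.55 for Hist1h2bc, -0.0477 to 0.0513 for H2afz and -0.0369 to 0.0394 for H3f3b. H2afz was at -0.0101 in DESeq2, -0.0263 with scaling without histone and structural RNA genes and -0.0345 without a filter, and H3f3b at -0.0108 and -0.0191 in the last 2 settings. The other 13 named members kept their sign in all settings. The cause of these changes was not tested. Most members lie near 1 CPM, where a count in KO F731 is worth the most, and this limits single-gene values.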
